A study of Mus musculus with 16 samples.

Results

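The circadian clock genes described here are 10 genes, taken by symbol from the 14858 genes of the count table: Arntl, Clock, Npas2, Per1, Per2, Per3, Nr1d1, Nr1d2, Dbp and Tef. All 10 were among the 13577 genes that passed the filter on low counts. They were listed by name, with no threshold, but the list was selected on the raw counts of all 16 libraries by group and by arm, so their levels are a description of these mice. The skin came from female BALB/cAnNTac mice of about 10 to 16 weeks of the Rodent Research Reference Mission-1. Total RNA of hind limb skin was sequenced after exon capture in 16 mice, with 1 library per mouse. Ground controls (n = 6) were kept in flight hardware on Earth and had no exposure to the space environment (ESE). The 10 ESE mice were divided by the study on their measured 5-methylcytosine (5-mC) content into a non-responder ESE cohort of high 5-mC (n = 6) and a responder ESE cohort of low 5-mC (n = 4). Each group also spans the mission's 2 arms. ESE mice of the ISS arm were killed on orbit after the shorter stay. ESE mice of the live animal return (LAR) arm were killed after the longer flight, the landing and a short recovery. Ground controls, which did not fly, were assigned to each arm. The ISS arm holds ground control replicates 1 to 3, non-responder replicates 1 to 3 and responder replicates 1 and 2, and the LAR arm holds the remaining 8 mice. The arm comes from the study's list of mice. Time in space, landing, recovery, handling and the date of collection all differ between the arms and cannot be told apart. The hour of death, on which clock transcripts depend, is not given in the sources used here.

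The mammalian clock is a feedback loop of transcription. Arntl (BMAL1) pairs with Clock, or with its relative Npas2, and the pair binds E-boxes and switches on the Per genes, the nuclear receptors Nr1d1 and Nr1d2 (REV-ERB alpha and beta) and the output factors Dbp and Tef. The PER proteins, with their partners the cryptochromes, then inhibit the pair, the REV-ERB proteins repress Arntl through RORE sites, and Dbp and Tef act through D-boxes. In skin the loop runs in keratinocytes, fibroblasts and hair follicles, and transcripts of Arntl and of the E-box targets are known to peak in opposite phases of the day.

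The sites of this loop were searched in the promoter windows of RefSeq (GRCm38.p6, the same coordinates as mm10), 250 bases before to 50 bases after each annotated start, on both strands. Of the members, 9 of 10 had a window, in 14 windows in all, and Per2 had none. The letters were CACGTG for the E-box, TTANGTAA for the D-box and TGACGTCA for the cyclic AMP response element (CRE). The RORE was searched as AGGTCA after a short run rich in A and T. No pair of these motifs overlapped in the members. The sites found are printed 5′ to 3′ on the strand of the gene, with the motif in capitals and 9 bases on each side, because they match the sites that the loop is known to use.
Per1 E-box, chr11:69098774-69098797, plus strand: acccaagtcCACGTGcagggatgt
Tef E-box at the first start, chr15:81802537-81802560, plus strand: ctgtggctcCACGTGctgcagctg
Tef E-box at the second start, chr15:81811267-81811290, plus strand: ctggcccagCACGTGtctacatcg
Per3 D-box nearer the start, chr4:151044807-151044832, minus strand: cgcccgcggTTATGTAAcccccgccg
Per3 D-box farther from the start, chr4:151044854-151044879, minus strand: acccgcgcgTTATGTAAggtactcgg
Arntl RORE, chr7:113207529-113207556, plus strand: gaaggcagaAAGTAGGTCAgggacggag

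Counted in bases from the start, the E-box of Per1 lay at -166, those of Tef at -127 and -138 of its 2 starts, the D-boxes of Per3 at -158 and -205, and the RORE of Arntl at 27 of its second start. An E-box was present in any window of 2 members, and of 8.09% of all 27025 genes with a window. A D-box was present in 1 member and 2.72% of genes, and a RORE in 1 member and 0.259% of genes. No member window held the CRE, which 1.79% of all 32851 windows held. These are matches of letters, and windows without a match say nothing about binding elsewhere in the gene.

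The libraries held 4159342 to 22593931 counts, and 10525 to 14208 genes had at least 10 counts. The RNA integrity number was low throughout, 1.2 to 2.7, and 13.3% to 57.3% of reads were ribosomal. All 8 keratinocyte markers were detected (summed level 3203 to 18540 CPM), as the skin label asks. The makeup of the biopsies differed. The 12 skeletal muscle markers summed to 5121 and 63292 CPM in ground control replicates 5 and 6, both of the LAR arm, against a median of 468 CPM over the 16 libraries. Libraries over 10 times the median were called rich. Non-responder replicate 3 of the ISS arm, at 4234 CPM, fell below this cutoff and was kept. The liver markers, 8 of 10 in the table, summed to 2399 and 134 CPM in responder replicates 1 and 2, both of the ISS arm, against a median of 5.56 CPM. Where a main result moves without these 4 libraries both values are given, and other values of single genes may move too. In such bulk RNA, fewer cells of a type and less RNA per cell cannot be told apart.

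Levels are given as CPM, counts scaled to the size of the library with TMM factors. For the order of levels between genes they were divided by the gene length in the table, and capture of exons may still favour some genes. Over the 16 libraries the order began with Nr1d1 at 27.7 ± 17.3 CPM per kb (SD, n = 16), Per1 at 25.8 ± 12.1 and Dbp at 22.6 ± 16.6. Per3 followed at 12.7 ± 7.89 CPM per kb, then Tef at 11.3 ± 6.91, Arntl at 10.2 ± 3.11, Per2 at 6.51 ± 5.57, Clock at 5.45 ± 1.102 and Nr1d2 at 4.50 ± 2.45 CPM per kb. Npas2 was lowest at 1.51 ± 0.613 CPM per kb. Each neighbour in this order differed from the next by less than the larger of their SDs, other than Nr1d2 and Npas2.

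The members varied unequally from mouse to mouse. The highest library had 42.1 times the CPM of the lowest for Per2, 29.2 times for Dbp and 10.6 times for Tef, but 3.25 times for Arntl and 2.04 times for Clock. The SD of log2 CPM over the 16 libraries was 1.60 for Dbp and 1.42 for Per2, larger than in 95.04% and 92.5% of the genes tested. For Clock it was 0.31, larger than in 14.2%. The median over the members was 0.892, and over all 13577 genes 0.551. Clock and Arntl were thus the steadiest of the set, and Dbp, Per2 and Tef the most variable.

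**Figure D1:**
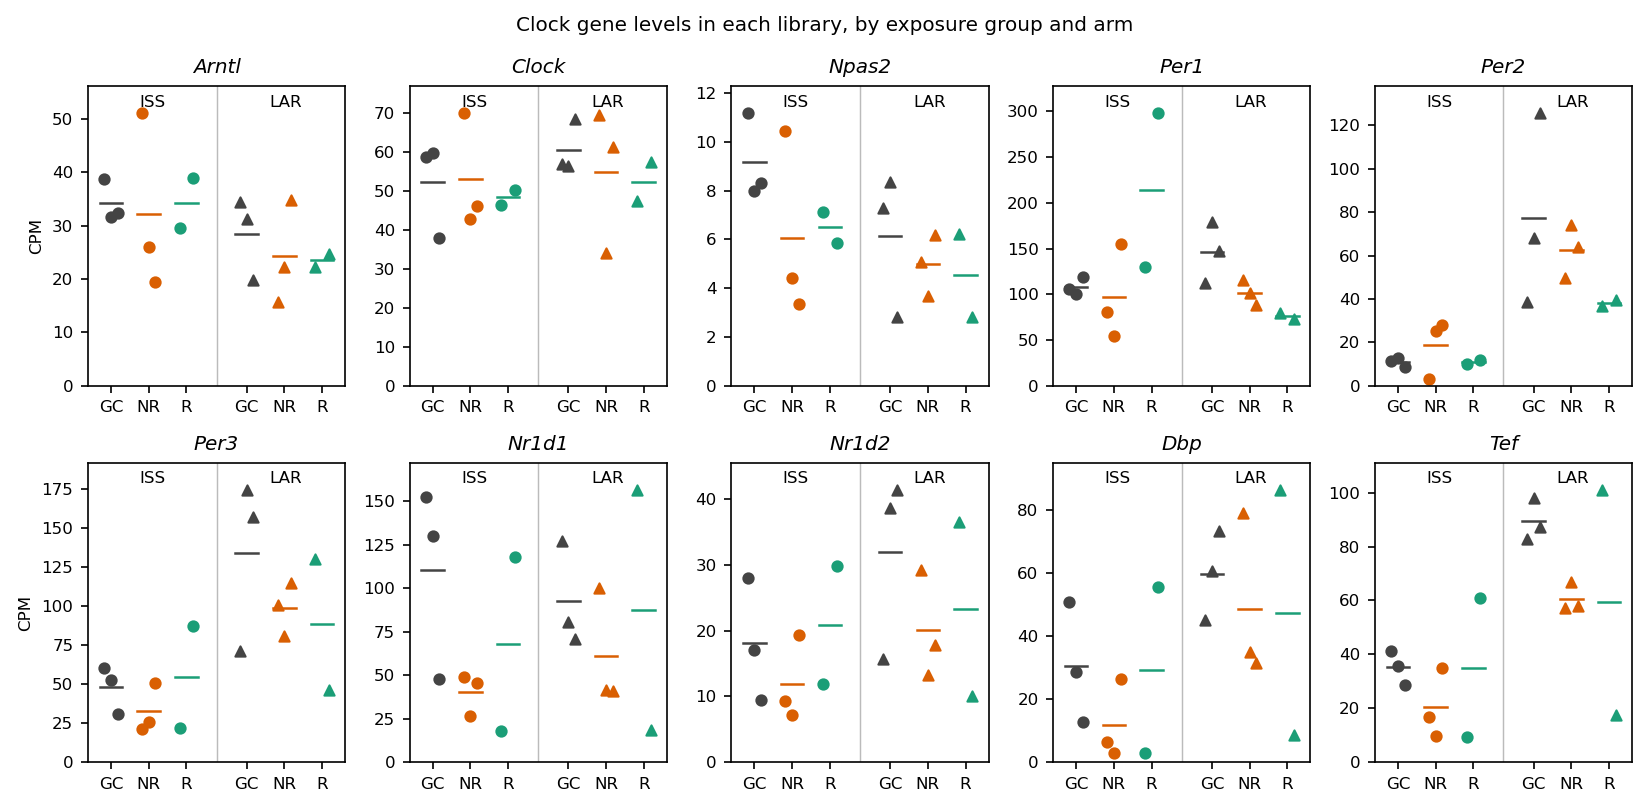
Level of each clock gene (CPM, linear axis from 0) in every library, by ground control (GC), non-responder (NR) and responder (R), with the ISS arm left and the LAR arm right of the grey line and a bar at each mean. For Per2 the LAR libraries span 36.9 to 126 CPM and the ISS libraries 2.98 to 28.2 CPM, while the arms of the other 9 genes overlap.

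Whether the LAR arm differed from the ISS arm, each with its ground controls, was asked of the Per genes first, since Per2 had the largest difference of the set. Per2 encodes a period protein, a repressor of the loop, and lies on chromosome 1 from 91415982 to 91459328 (mm10, minus strand). In the ISS arm it was at 11.4, 12.7 and 8.86 CPM in ground controls 1 to 3, at 2.98, 25.2 and 28.2 in non-responders 1 to 3, and at 10.3 and 11.8 in responders 1 and 2. In the LAR arm it was at 38.4, 68.2 and 126 CPM in ground controls 4 to 6, at 49.9, 74.1 and 63.8 in non-responders 4 to 6, and at 36.9 and 39.8 in responders 3 and 4. Every LAR library was therefore above every ISS library, in ground controls and in ESE mice alike. The lowest value, of non-responder replicate 1, rests on 8 counts.

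The mean was 62.1 ± 29.4 CPM (SD, n = 8) in the LAR arm and 13.9 ± 8.47 (SD, n = 8) in the ISS arm, a log2 fold change of 2.13 (SE 0.39) with exposure in the model. By the quasi-likelihood test of edgeR, adjusted over all genes, p was 0.160, with an unadjusted p of 4.72e-05 that was the 4th smallest of 13577. Per2 thus did not pass the threshold of 0.05 in this test, nor did any other gene (0%). It passed in DESeq2 (adjusted p = 4.29e-05) and in edgeR's likelihood ratio test (adjusted p = 0.000243), which called 95 and 61 genes. Per2 was taken first for its difference in these same counts, so its rank, these calls and the separation of the arms are a description. Over all alternatives its adjusted p ran from 4.29e-05 to 0.853. Without the 4 muscle-rich or liver-rich libraries the log2 fold change was 1.55 (adjusted p = 0.853), and with each library left out in turn it was 1.91 to 2.33.

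Within the ground controls the log2 fold change of Per2 between the arms was 2.81 (SE 0.62, adjusted p = 0.513), and 1.80 without the muscle-rich and liver-rich libraries, a fit that leaves 1 LAR control and assumes it to vary like the others. Within the ESE mice it was 1.73 (SE 0.46), with an adjusted p of 0.623 in the quasi-likelihood test and 0.0418 in DESeq2, the lowest of a range that reached 0.9999 over the alternatives. The levels did not overlap between the ground controls of the arms either, as for 10.6% of all genes with 3 against 3 mice. Of all genes tested, 4 (0.0295%) had arms that did not overlap over the 8 and 8 libraries, and Per2 was the only member among them. Abcc8, a subunit of a potassium channel (higher in the LAR arm), and Adamts17, a metalloprotease (lower), were also among them and are named here after their values were seen.

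Per3, a period gene with a weaker role in the loop, lies on chromosome 4 from 151003655 to 151044665. It was at 60.3, 52.7 and 31.0 CPM in the ISS ground controls, 21.2, 25.7 and 50.99 in the ISS non-responders, and 22 and 87.5 in the ISS responders. In the LAR arm the same groups had 71.2, 174 and 157 CPM, 101, 80.5 and 115 CPM, and 130 and 46.2 CPM. The arms overlapped through responder replicate 2, the highest of the ISS arm, and ground control replicate 4 and responder replicate 4, the lowest of the LAR arm. Between the arms Per3 differed by 1.29 on the log2 scale (SE 0.32). The quasi-likelihood test gave an adjusted p of 0.338, DESeq2 0.0232 and the likelihood ratio test 0.0352, and over all alternatives it ran from 0.0232 to 0.856. Between the ground controls it was 1.48, but 0.56 without the muscle-rich and liver-rich libraries.

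Per1, the third period gene, which also answers directly to glucocorticoids and to light, did not share this difference. Its range was 54.5 to 298 CPM in the ISS arm (median 112) and 72.8 to 179 CPM in the LAR arm (median 107). The highest library was responder replicate 2, one of those rich in liver RNA. Between the arms Per1 differed by -0.24 (log2, SE 0.30, adjusted p = 0.832), with 0.44 between the ground controls and -0.65 between the ESE mice. The ratio of Per2 to Per1 on the log2 scale had a median of -3.44 in the ISS arm and -0.99 in the LAR arm, with ranges of -4.76 to -1.12 and -1.55 to -0.23 that overlap.

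Dbp and Tef, PAR-domain bZIP factors that carry the output of the loop to D-boxes, had higher means in the LAR arm and overlapping ranges. Dbp, on chromosome 7 from 45705247 to 45710203, was at 50.9, 28.6 and 12.7 CPM in the ISS ground controls, 6.33, 3.07 and 26.4 in the ISS non-responders, and 2.96 and 55.6 in the ISS responders. In the LAR arm it was at 45.2, 60.7 and 73.6 CPM in ground controls, 79.3, 34.9 and 31.6 in non-responders, and 86.6 and 8.59 in responders. Very low Dbp was thus found in non-responders 1 and 2 and responder 1 of the ISS arm and in responder 4 of the LAR arm, all of them ESE mice.

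Dbp differed between the arms by 1.196 on the log2 scale (SE 0.59, adjusted p = 0.559), and 1.74 without responder replicate 2. The gene overlaps Sphk2 on the other strand, and whether counting used the strand is not stated, so some reads may be of either gene. Tef, on chromosome 15, was at 9.49 to 60.8 CPM in the ISS arm (median 31.8) and at 17.7 to 101 CPM in the LAR arm (median 74.9). It differed by 1.24 (log2, SE 0.38, adjusted p = 0.450), and it was the third and last member with an unadjusted p under 0.05 between the arms.

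Between the ground controls alone, Tef was at 28.5 to 41.4 CPM in the ISS arm and at 83.0 to 98.1 CPM in the LAR arm, a difference of 1.34 (log2, SE 0.64, adjusted p = 0.580). With 3 mice in each arm, the ground controls did not overlap for 10.6% of all genes, and for 3 members, Per2, Per3 and Tef, each higher in the LAR arm. Between the ESE mice of the arms 0.523% of genes did not overlap, and 1 member, Per2.

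The REV-ERB genes, which repress Arntl, showed no such separation. Nr1d1 was at 18.2 to 153 CPM in the ISS arm (median 48.7) and 18.8 to 157 CPM in the LAR arm (median 75.9). It differed by 0.20 (log2, SE 0.45, adjusted p = 0.920), and -0.12 without responder replicate 3. Nr1d2 was at 7.25 to 29.8 CPM (median 14.4) and 10.1 to 41.3 CPM (median 23.5) in the same order, with a log2 fold change of 0.59 (SE 0.35, adjusted p = 0.632). Between the ground controls the log2 fold change of Nr1d2 was 0.81, but -0.22 without the muscle-rich and liver-rich libraries, which leaves 1 LAR control. Both genes were at the low end of their range in responder replicate 4 and non-responder replicate 2, as Dbp was.

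The positive limb leaned the other way or not at all. Arntl, on chromosome 7 from 113207465 to 113314126, was at 38.7, 31.6 and 32.4 CPM in the ISS ground controls, 51.02, 26.0 and 19.5 in the ISS non-responders, and 29.6 and 38.8 in the ISS responders. The LAR values were 34.4, 31.2 and 19.8 CPM in ground controls, 15.7, 22.3 and 34.8 in non-responders, and 22.3 and 24.8 in responders. The ranges overlap over most of their length, and the difference was -0.38 (log2, SE 0.21, adjusted p = 0.589). Npas2 was at 3.36 to 11.2 CPM in the ISS arm and 2.83 to 8.35 CPM in the LAR arm, with a log2 fold change of -0.44 (SE 0.28, adjusted p = 0.651). Clock was at 37.9 to 70.0 CPM and 34.3 to 69.6 CPM, with a log2 fold change of 0.13 (SE 0.16, adjusted p = 0.834).

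Over the 10 members, 7 had a log2 fold change above 0 and 3 below 0 between the arms, with a median of 0.39 against 0.04 over all genes. Unadjusted p was under 0.05 for 3 members (Per2, Per3 and Tef) in all mice, where 9.41% of all genes had it. It was so for 2 members between the ground controls (8.79% of genes) and for 3 between the ESE mice (4.98% of genes). The adjusted p was over 0.05 for every member and every gene in these comparisons by the quasi-likelihood test (0% each).

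Summed markers of other cell types were also set side by side, and their ranges overlapped between the arms. In the ISS and the LAR arm the medians were 56.9 and 216 CPM for adipocyte and 10.5 and 30.8 CPM for endothelial genes. They were 233 and 259 CPM for fibroblast and 26545.5 and 17713.5 CPM for anagen hair genes. In ESE mice alone the fibroblast medians were 253 and 199 CPM. The 6 adipocyte genes summed to 17.0 to 168 CPM in the ISS arm and 124 to 3776 CPM in the LAR arm, and to 42.3 to 132 and 208 to 230 CPM in the ground controls of each. The 4 endothelial genes summed to 2.23 to 22.4 CPM in the ISS arm and 5.28 to 445 CPM in the LAR arm, the 6 fibroblast genes to 122 to 315 and 162 to 904 CPM, and the 7 anagen hair genes to 6164 to 159317 and 812 to 76981 CPM. No marker of these lists was at 0 in all libraries of an arm. The share of ribosomal reads had a median of 28.7% in the ISS arm and 25.8% in the LAR arm, and the integrity number 1.75 and 1.85. Their part in the differences of Per2, Per3 and Tef was not tested.

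**Figure D2:**
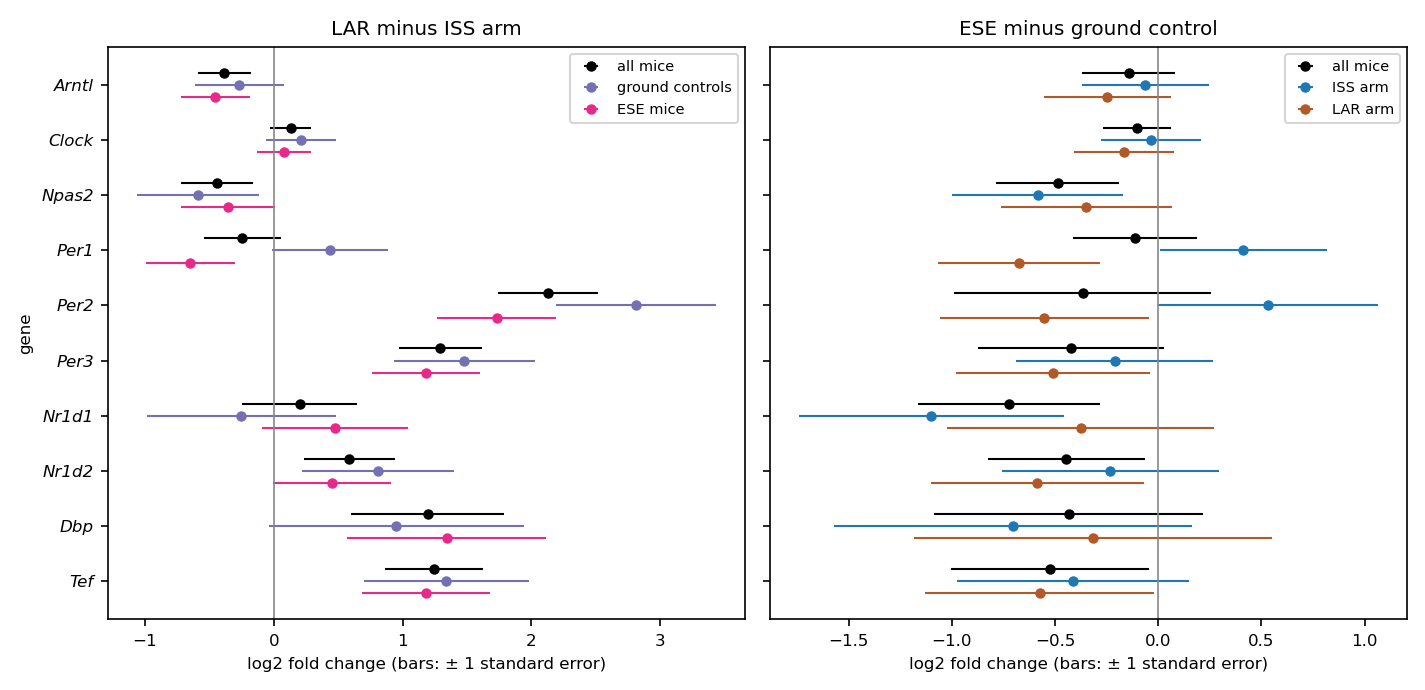
Log2 fold change (x axis, with bars of 1 standard error) of each clock gene (y axis) between the arms, left, and between ESE mice and ground controls, right, in all mice and in each subset. Per2 stands farthest from 0 on the left, at 2.13, 2.81 and 1.73, while on the right all 10 genes of the comparison in all mice lie between -0.72 and -0.10.

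Whether exposure to space changed the clock genes was asked next. All 10 members had a log2 fold change below 0 in ESE mice against ground controls, with a median of -0.43 (-0.04 over all genes) and a range of -0.72 to -0.10. No member passed the quasi-likelihood test, nor did any gene (0%), and no member had an unadjusted p under 0.05, which 7.86% of all genes had. The smallest adjusted p of a member was 0.632. The integrity number had a median of 1.95 in ground controls and of 1.7 in non-responders and in responders, and its part in these differences was not tested. No member had ESE mice and ground controls that did not overlap, in all mice (0.0221% of genes), the ISS arm (1.72%) or the LAR arm (3.54%). Without the 4 muscle-rich or liver-rich libraries the median was -0.02 and 5 of the 10 were below 0, but this leaves 1 of 4 ground controls and 5 of 8 ESE mice in the LAR arm, so that exposure and arm are mixed in it. Within the arms the same setting gave a median of -0.58 with 8 members below 0 in the ISS arm and of -0.18 with 6 below 0 in the LAR arm, where 1 control remained. The 4 libraries include ground control replicates 5 and 6, which held the highest Per3 and Nr1d2 of the series, and replicate 6 also the highest Per2.

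Nr1d1 had the largest of these differences, -0.72 (SE 0.44). It was at 48.2 to 153 CPM in ground controls (median 104), 26.9 to 100 CPM in non-responders (median 43.8), and 18.2 to 157 CPM in responders (median 68.4). Dbp was at 12.7 to 73.6 CPM in ground controls (median 48.1) and 2.96 to 86.6 CPM in ESE mice (median 29.0), a log2 fold change of -0.43 (SE 0.65). ESE mice held the 2 highest and the 4 lowest values of Dbp. The SD of its log2 CPM was 1.83 in the 10 ESE mice and 0.92 in the 6 ground controls, and this difference in spread was not tested.

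The exposure comparison was also made within each arm. Per1 had a log2 fold change of 0.41 (SE 0.40) in the ISS arm and -0.67 (SE 0.39) in the LAR arm, and Per2 of 0.53 (SE 0.53) and -0.55 (SE 0.51), while Per3 was below 0 in both (-0.21 and -0.51). The difference between the arms did not pass the test, at -1.08 for each (SE 0.57 for Per1 and 0.74 for Per2), with an adjusted p of 0.999 for both. Without the muscle-rich and liver-rich libraries it was -0.14 for Per1 and -0.34 for Per2. In the ISS arm Per1 was at -0.04 without responder replicate 2, so its direction there rests on that mouse. In the ISS arm 8 of the 10 members were below 0 and in the LAR arm 10 of 10. No member and no gene was called in either arm or for the difference (0% each), and no member had an unadjusted p under 0.05, against 2.21%, 9.24% and 4.54% of all genes.

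The cohorts were compared in the same way. Against ground controls, 10 members were below 0 in non-responders (median log2 fold change -0.49) and 9 in responders (median -0.30). Nr1d1 in non-responders had the smallest unadjusted p of these, 0.064, with a log2 fold change of -1.002 (SE 0.50, adjusted p = 0.664). Between the cohorts, 8 members were higher in responders, with a median of 0.17. Per1 was at 0.55 in this comparison, and at -0.08 without responder replicate 2. No member and no gene was called in these 3 comparisons (0% each), and no member had an unadjusted p under 0.05, which 3.09% of genes had for responders, 6.83% for non-responders and 1.86% between the cohorts. The ESE, non-responder and responder comparisons share the same 6 ground controls. Without the 4 muscle-rich or liver-rich libraries the median against ground controls was -0.16 in non-responders, with 7 members below 0. In responders it was then 0.15, with 5 below 0, and Per2 there went from -0.84 to 1.12. Between the cohorts the median was then 0.19, with 5 members below 0. The responders left are all of the LAR arm, so cohort and arm are mixed in these values.

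**Figure D3:**
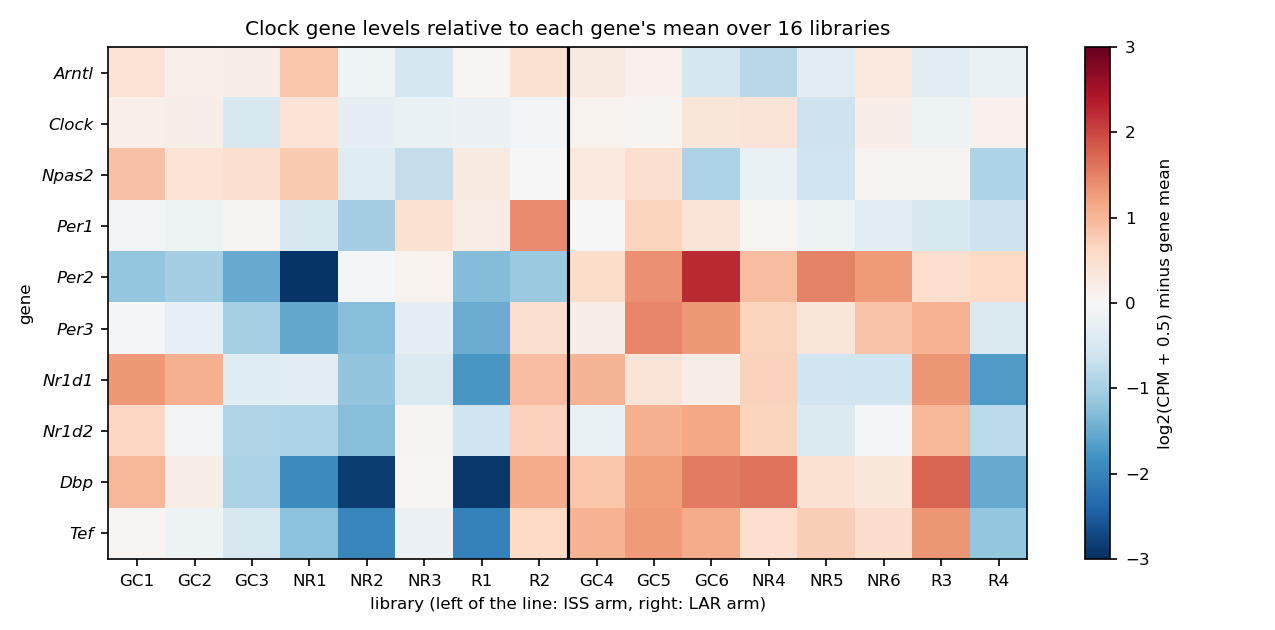
Level of each clock gene (rows) in each library (columns), as log2(CPM + 0.5) minus the mean of the gene over the 16 libraries, with the ISS arm left of the black line. Per3, Nr1d1, Nr1d2, Dbp and Tef are all below their means (blue) in GC3, NR1, NR2, R1 and R4, while Per2 follows the line between the arms.

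How the members varied together from mouse to mouse was read from the same libraries. Over all 45 pairs of members, 13 passed by Pearson's r of log2 CPM and 10 by Spearman's rho (permutation, adjusted over the 45). The permutation ignored the arm, and the pairs that passed by r include Per2 with Arntl, Npas2 and Per3. The share of pairs of all genes that would pass was not computed, so these counts are a description. Dbp, Tef, Per3, Nr1d1 and Nr1d2 had high r with each other. They were put together after these values were seen, so their r are given as a description with no test. Among their 10 pairs r was 0.55 to 0.95 over the 16 libraries, and 0.44 to 0.91 without the 2 libraries farthest from the median of the first gene. Within the ISS arm r was 0.75 to 0.98 and within the LAR arm 0.54 to 0.91.

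Dbp and Tef had r = 0.98 and rho = 1 over the 8 libraries of the ISS arm, where the order of the mice was thus the same for both genes. In the LAR arm they had r = 0.89 and rho = 0.62, and r = 0.25 without the 2 libraries farthest from the median, so there the relation rests on those mice. Dbp and Nr1d1 had r = 0.90 in the ISS and 0.88 in the LAR arm, with rho = 0.83 in both, and r = 0.77 and 0.61 without the 2 libraries. Dbp and Nr1d2 had r = 0.89 and 0.86, with rho = 0.83 and 0.74, and r = 0.96 and 0.88 without the 2 libraries.

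Per2 was set apart by arm, so no pooled r is given for it. Within the ISS and the LAR arm it had r = 0.13 and 0.26 with Dbp, 0.08 and 0.30 with Tef, and 0.35 and 0.55 with Per3, its nearest member of the 5. With Nr1d1 r was -0.09 and -0.16, and with Nr1d2 0.18 and 0.37. In the ISS arm, non-responder 2 combined one of the lowest Dbp levels, 3.07 CPM, with 25.2 CPM of Per2, and responder 2 combined 55.6 CPM of Dbp with 11.8 CPM of Per2. Without the 2 libraries farthest from the median of Dbp, r of Per2 and Dbp was 0.68 and -0.08.

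**Figure D4:**
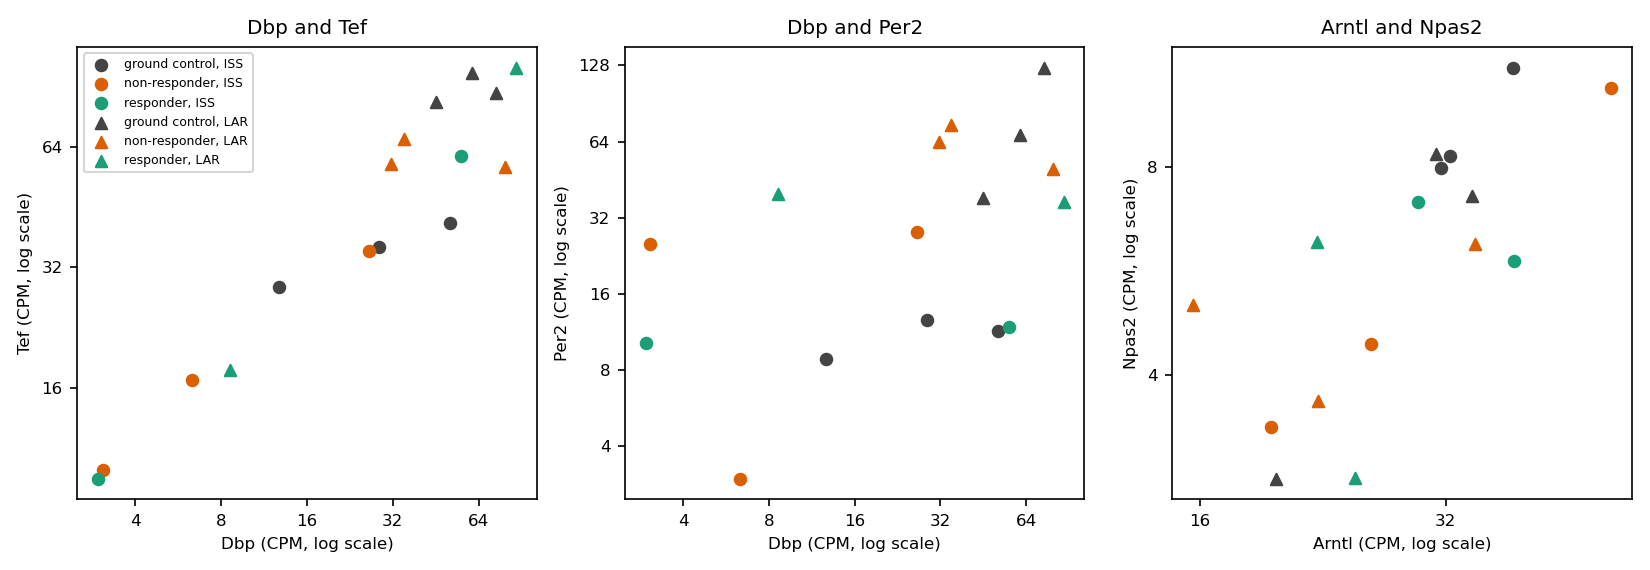
Levels of pairs of clock genes in each library (CPM, log scale on both axes), with circles for the ISS arm, triangles for the LAR arm and colour for the group. Dbp and Tef lie along 1 line, the arms of Dbp and Per2 lie at different heights, and Arntl and Npas2 rise together.

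Arntl was set against each of the 9 other members, since its transcript is known to run in opposite phase to its targets. It went with Npas2, its alternative partner's gene, at r = 0.74 and rho = 0.69 (permutation adjusted p over the 9 pairs = 0.0120 and 0.0349), and r = 0.79 without the 2 libraries farthest from its median. Within the arms r was 0.83 in the ISS and 0.54 in the LAR arm, with rho = 0.71 and 0.50, and r = 0.59 and 0.74 without the 2 libraries. These within-arm values are a description with no test. Without the 4 muscle-rich or liver-rich libraries r was again 0.74, with adjusted p = 0.0502. The share of all genes that would pass with Arntl was not computed. Genes outside the clock reached r of 0.85 (Nipal1) and -0.88 (Napepld) with it, so the relation with Npas2 is a description.

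With Per2, Arntl had r = -0.88 and rho = -0.71 in the ISS arm and r = -0.18 and rho = -0.14 in the LAR arm, again with no test. Without the 2 libraries farthest from the median of Arntl these r were -0.58 and -0.47. Non-responder replicate 1 carried much of the relation in the ISS arm, with the highest Arntl, 51.02 CPM, and the lowest Per2, 2.98 CPM. Arntl with Dbp, Tef, Per3, Nr1d1 and Nr1d2 had r of -0.27, -0.21, -0.35, 0.09 and -0.27, with permutation adjusted p of 0.535 to 0.820 and rho of -0.25, -0.15, -0.25, 0.17 and -0.26 with adjusted p of 0.636 to 0.644. Within the arms their r lay between -0.31 and 0.38. Without the 2 libraries farthest from the median of Arntl they were 0.03, -0.01, -0.09, 0.32 and -0.02 in the same order. Opposite levels of Arntl and these 5 genes were therefore not seen at this number of mice.

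Dbp was also set against 12 measures of the libraries, 9 summed marker lists, the integrity number, the ribosomal share and the total count, as a description chosen after its values were seen. The 3 Schwann cell markers had r = 0.68 and rho = 0.63 over the 16 libraries, with r = 0.83 in the ISS and 0.54 in the LAR arm. The anagen hair markers, keratins and other genes of the growing hair, had r = -0.60 and rho = -0.68, with r = -0.59 and -0.57 within the arms. The adipocyte markers, which also differed between the arms, had r = 0.57 and rho = 0.56, with r = 0.52 and 0.24 within them. The other 9 measures had r of -0.27 to 0.48. The integrity number, one of these, had r = 0.44, with r = 0.70 in the ISS and 0.11 in the LAR arm. The part of tissue makeup in the shared variation of Dbp with other members was not tested.

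The genes whose levels were most like Dbp over the 16 libraries, of 12340 ranked, were Tef (r = 0.95), Xpc, a DNA repair factor (0.92), Npdc1 (0.91), Crnde (0.91) and Tnxb, an extracellular matrix protein (0.91). Those least like it were Ift57, a protein of cilia (-0.89), BC055324 (-0.88), Dcbld1 (-0.86), Jakmip2 (-0.86) and Me2, a malic enzyme of mitochondria (-0.86). Tef was thus the gene nearest to Dbp of all genes ranked. For Arntl the nearest were Nipal1, a magnesium transporter (0.85), Ggct (0.84), Cers3, a ceramide synthase of the epidermis (0.83), Stk24 (0.81) and Hpse, heparanase (0.81). The farthest were Napepld (-0.88), Abcb8 (-0.86), Cpeb1 (-0.85), Coa7 (-0.85) and Itga5, an integrin (-0.83). No clock gene was among those 10.

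The rest of the pathway was taken as a list of 23 other clock genes, all of them tested (Noct under its older symbol Ccrn4l). Between the arms, 14 had a log2 fold change above 0 and 9 below 0, with a median of 0.24. None passed the quasi-likelihood test (0% of all genes), and 7 had an unadjusted p under 0.05, each higher in the LAR arm, as 9.41% of all genes had in either direction. Bhlhe41, a repressor that competes at E-boxes, was at 1.98 to 7.08 CPM in the ISS arm (median 4.26) and 3.30 to 43.1 CPM in the LAR arm (median 9.97). It differed by 1.84 (log2, SE 0.55, adjusted p = 0.450 in the quasi-likelihood test). Hlf, the third PAR bZIP factor, had 1.06 (SE 0.38) and the cryptochrome Cry1 0.74 (SE 0.26). The arms of each of these 3 genes overlapped.

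**Figure D5:**
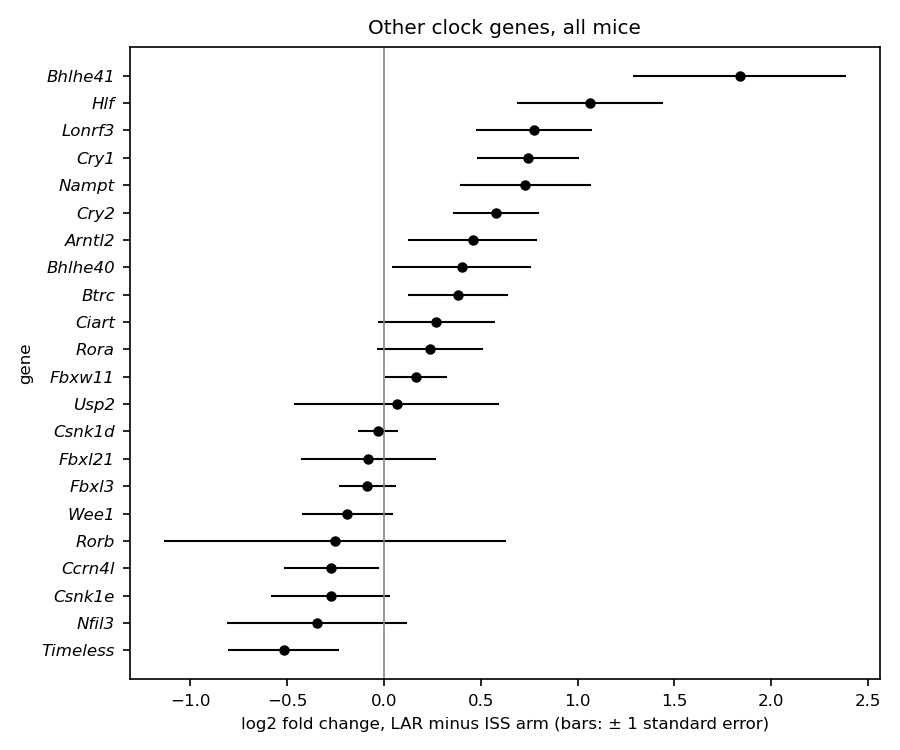
Log2 fold change between the LAR and the ISS arm (x axis, bars of 1 standard error) for 22 of the 23 other clock genes (y axis) over the 16 mice, with Noct under its older symbol Ccrn4l. Bhlhe41 lies highest at 1.84, 13 of the 22 lie above 0, and none passed the quasi-likelihood test.

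Against exposure, 14 of the 23 were below 0 in ESE mice, with a median of -0.10, and 1 had an unadjusted p under 0.05, a share below the 7.86% of all genes. This was Rora, the RORE activator of Arntl, at -0.71 (log2, SE 0.28, adjusted p = 0.624). Wee1, a kinase of the cell cycle under E-box control, had -0.43 (SE 0.24), Cry2 -0.47 (SE 0.26) and Timeless 0.55 (SE 0.32). In the LAR arm, 17 of the 23 were below 0, with Wee1 at -0.87 (SE 0.31, adjusted p = 0.447) and Rora at -0.92 (SE 0.39, adjusted p = 0.505).

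Because Per1 and other clock genes also answer to glucocorticoids and to acute stimuli, those targets were read beside them. Fkbp5, a glucocorticoid-induced chaperone partner, was at 44.6 to 62.1 CPM in the LAR ground controls, 6.78 to 16.6 CPM in the ISS ground controls, and 13.4 to 26.4 CPM in the LAR ESE mice. Tsc22d3 was at 109 to 228, 45.2 to 66.9 and 19.3 to 72.1 CPM, and Zbtb16 at 284 to 325, 83.1 to 123 and 52.7 to 123 CPM in the same order. The 3 LAR ground controls thus lay above both other sets for these 3 genes of the 11 listed. Of all genes, 10.6% did not overlap between the LAR and the ISS ground controls, and 3.54% between the LAR ground controls and the LAR ESE mice. Per1 was at 113 to 179 CPM (median 147) in the LAR ground controls. The ISS ground controls had 99.9 to 119 CPM of Per1 (median 106) and the LAR ESE mice 72.8 to 116 CPM (median 88.4). Both of these sets overlapped the LAR ground controls. Between the ground controls Fkbp5 differed by 2.31 (log2, SE 0.53, adjusted p = 0.513). These 3 genes had the smallest p of the 11 there in the quasi-likelihood test. The list as a whole had a median log2 fold change of 0.06 between the ground controls, with 7 genes above 0 and 4 below, down to -1.09. The LAR ground controls include the muscle-rich replicates 5 and 6, whose part in these levels was not tested.

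The 8 immediate early genes were all below 0 between the LAR and the ISS arm, with a median log2 fold change of -1.47, and 7 had an unadjusted p under 0.05, against 9.41% of all genes. Fos was at 26.7 to 424 CPM in the ISS arm (median 112) and 8.44 to 88.2 CPM in the LAR arm (median 33.2), with a log2 fold change of -2.15 (SE 0.60, adjusted p = 0.444). Egr1 had -1.41 (SE 0.38, adjusted p = 0.414). These genes were thus low in the arm in which Per2 was high, and their part in its difference was not tested.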

How the data were processed

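Hind limb skin of 16 mice was analysed from the deposited raw counts per gene. According to the labels and the study's methods, the authors captured exons, aligned reads with STAR to mm10 and counted them with featureCounts, and these counts are not normalized. Whether strand was used is not stated. The integrity number is a score the authors deposited, and their mapping statistics gave the ribosomal share. The deposited fold changes, p-values and FDRs of the authors' own comparisons were not used, nor was their log2 FPKM.

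Groups came from the labels. The arm came from the study's list of mice, matched by library name. Genes were kept by edgeR's filterByExpr by exposure, scaled by TMM and compared by the robust quasi-likelihood F test of edgeR 4.0.16 (limma 3.58.1, R 4.3.3), with Benjamini-Hochberg adjustment over 13577 genes and a threshold of 0.05. The 2-group and 3-group fits held exposure or cohort, the arm fit exposure and arm, and the within-arm fits the 4 combinations. The SE comes from the fold change and the F statistic of its test. Log2 CPM used a prior count of 2. Correlations used 100000 permutations, two-sided, in Python 3.11.15. No pair of libraries of a group was within sampling noise, and the replicates are separate animals.

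The members and all lists were chosen with earlier results of these data known. The genes named are the 10 members, the other clock genes of smallest p (4 per comparison), the glucocorticoid-induced and immediate early genes read beside Per1, and the 5 genes nearest to and farthest from Arntl and Dbp with an average log2 CPM over 1. Some genes that this rule or a count covers are not reported here by name. On simulated counts for the arm comparison (13463 genes), 34.8%, 89.4% and 93.7% of genes changed by 1, 2 and 3 on the log2 scale were recovered and 2.08% of calls were false. These counts were drawn gene by gene, with no exposure effect and no difference in tissue makeup. The shares therefore do not describe recovery in the real libraries. As alternatives, libraries were scaled by RLE, tests were run with DESeq2 1.42.0 or by likelihood ratio, genes were kept without a filter or only with 10 counts in each library, and fits were repeated leaving out libraries rich in muscle or liver RNA, the 3 libraries of highest ribosomal share or each library in turn, or adding the arm or the mouse number (a replicate block). Mouse numbers did not pair the samples.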

Additional observations from a re-analysis of the deposited data

Results flagged for a closer look

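Within the groups of 6 and 4 libraries, 4 of 30 sets of member levels held a library far from the rest. The rule is set to flag about 1 in 20 by chance, but its share over all genes was not computed. Each group also spans 2 arms, and the sets share the same libraries, so this count is a description. Arntl was at 4.32 log2 CPM in ground control replicate 6, against 4.97 to 5.28 in the other 5 ground controls, and Npas2 was at 1.57 in the same library, against 2.89 to 3.50. This library held the most muscle RNA, at 63292 CPM of muscle markers, and its part in these values was not tested. Clock was at 5.25 log2 CPM in ground control replicate 3, against 5.82 to 6.10 in the others. Per2 was at 1.64 log2 CPM in non-responder replicate 1, against 4.66 to 6.21 in the other 5 non-responders, a value that rests on 8 counts.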

How the results depend on the processing

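No clock gene passed the threshold in the quasi-likelihood test in any of the 10 comparisons. In DESeq2, 2 did between the arms in all mice (Per2 and Per3), 1 between the ground controls and 1 between the ESE mice (Per2 in both). In the likelihood ratio test, 2 did in all mice (Per2 and Per3) and 1 between the ground controls (Per2). The list was selected on the same counts, so these calls are a description. DESeq2 called 95 genes between the arms in all mice, 90 between the ground controls and 77 between the ESE mice, and the likelihood ratio test 61, 14 and 38. The cause was not tested. All other alternatives called 0 members, and with each library left out in turn the count was 0 to 0 in every comparison. Per2 was not tested with at least 10 counts required in every library. Of the members' fold changes under the alternatives, 2289 moved by less than the spread between libraries of an arm and exposure and 21 by more, 17 of them without the muscle-rich and liver-rich libraries. Of the 9 pairs with Arntl, 2 passed by r (Npas2, and Per2 in the opposite direction). The share of all genes that would pass with Arntl was not computed. The permutation ignored the arm, and by rho the permutation adjusted p of Per2 was 0.140. By r, 0 passed without those 4 libraries, where with 12 libraries Npas2 kept r = 0.74 (permutation adjusted p = 0.0502) and the adjusted p of Per2 was 0.0657.

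The mouse numbers are shared between ground controls and ESE mice of an arm. Deviations of same-numbered mice correlated at -0.13 to 0.32, so the numbers do not pair the samples. With the number as a replicate block, 0 members were called and the median log2 fold change in ESE mice was -0.82. Only numbers found in both exposures inform this fit, 01 and 02 of the ISS arm and 01, 13 and 18 of the LAR arm. Their libraries include the muscle-rich ground control replicates 5 and 6 and the liver-rich responder replicate 1.

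The integrity of the RNA (1.2 to 2.7) and the total counts limit small differences, and Per2 in non-responder replicate 1 rests on 8 counts.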
